A study of Arabidopsis thaliana with 24 samples.

Results

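In 57 Arabidopsis loci the mean DMS reactivity of the transcript was lower in salt-treated shoots than in control shoots and higher in salt-treated roots than in control roots. The members were chosen by these measured values: the log2 ratio of mean reactivity, salt over control, had to be -0.2 or lower in shoot and 0.2 or higher in root. These limits equal 0.871 and 1.15 times the control value. Each locus is represented by its lowest-numbered isoform, and a locus was considered where mean reactivity was at least 0.1 and the Gini index at most 0.9 in all 4 conditions. The deposited table held 12978 transcripts of 8956 loci, of which 8830 met these limits, and the 57 members are 0.646% of the 8830.

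The samples were shoots and roots cut from Col-0 plants grown in hydroponic solution, labelled as 24-day-old, which were either left in that solution (control) or given 100 mM NaCl for 48 h from that age (salt). Tissue from about 40 plants per library was immersed in buffer with 0.75% DMS for 5 min or in buffer alone, and the 24 libraries make up 8 groups of 3, 1 group for every combination of tissue, salt and DMS. The authors combined the 6 libraries of a condition into 1 value per transcript, so the members have 4 values each, with no replicate spread, no test and no p-value. Read depth is unknown, and because the values are reactivities and not abundances, the tissues were not checked against marker genes.

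Dimethyl sulfate (DMS) enters living tissue and methylates adenines and cytosines whose pairing face is free, and reverse transcriptase stops next to the methylated base. A base that is paired or covered by protein reacts little, so the mean reactivity of a transcript is read as a measure of how exposed its bases are. The Gini index runs from 0, where reactivity is spread evenly along the RNA, to 1, where few bases hold it. RNA structure and bound proteins bear on the translation and decay of a message, and plants are known to adjust both under salt. In a whole organ, a different fold within cells and a different mix of cells contributing the RNA cannot be told apart.

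Across all 8830 loci a log2 ratio of -0.2 or lower in shoot was found in 671, or 7.6%, and a ratio of 0.2 or higher in root in 1272, or 14.4%. The 57 members are 8.49% of the loci that were lower in shoot, below the 14.4% of all loci that were higher in root. They are 4.48% of those that were higher in root, below the 7.6% of all loci that were lower in shoot. Across the 8830 loci the shoot and root ratios had a weakly positive Spearman's rho of 0.204. At the same limits 19 loci had the mirror pattern, higher in shoot and lower in root, while 51 loci were lower in both tissues and 92 higher in both. The mirror set included transcripts of photosystem and light-harvesting proteins such as PSAN, LHCA1 and LHCB6. No library is shared by the shoot and root comparisons. Because the median locus stood slightly below 0 in shoot and above 0 in root, the group is sensitive to scale, and 10 of the 57 still met the limits after each tissue's ratios were centred on that median.

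**Figure D1:**
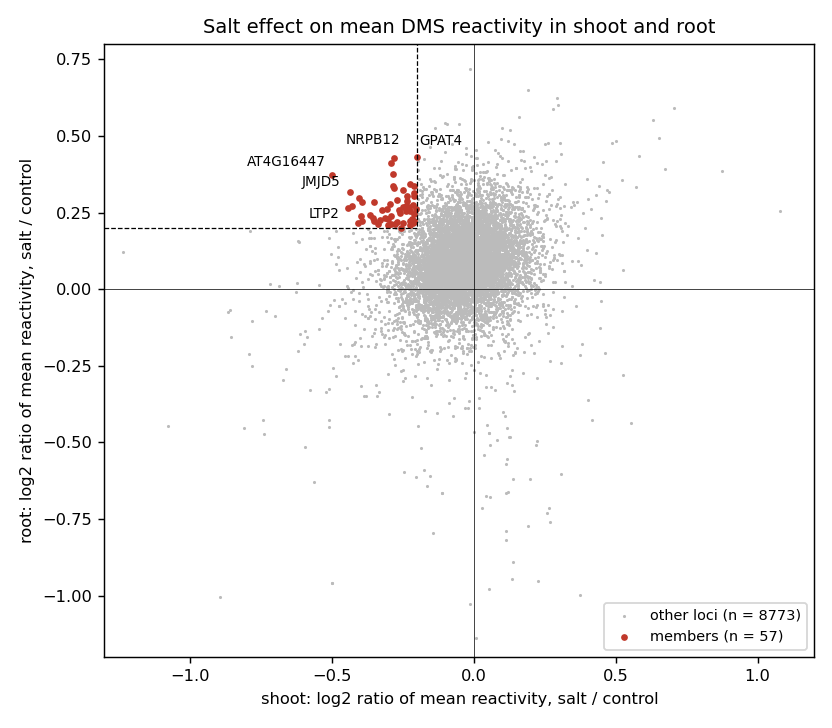
Log2 ratio of mean DMS reactivity, salt over control, in shoot (x axis) and root (y axis) for 8830 loci, each a point from 1 value per condition. The 57 members (red) lie above and to the left of the dashed limits, at most 0.50 below 0 in shoot and at most 0.43 above 0 in root, and they adjoin the main cloud of loci.

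The members' ratios were small. In shoot they ran from -0.50 to -0.20 with a median of -0.28, against a median of -0.03 over the 8830 loci. In root they ran from 0.20 to 0.43 with a median of 0.26, against 0.09. No member was lower by 1.5-fold in shoot or higher by 1.5-fold in root. Salt-treated shoots stood at 0.8 times the control value or lower in 16 members and in 1.88% of the 8830 loci. Salt-treated roots stood at least 25% above the control in 10 members and in 2.46% of the loci, but the rule itself used these values. AT4G16447 passed both of these limits and was the only member that did. The shoot ratio was the larger of the pair in 31 members and the root ratio in 26.

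AT4G16447, a protein-coding locus with no symbol in the reference, had the largest difference between the tissues. Its mean reactivity was 0.268 without and 0.190 with salt in shoots. In roots it was 0.119 without and 0.154 with salt. Its log2 ratios were thus -0.50 and 0.37, and salt brought the tissues nearer to each other without reversing their order.

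JMJD5, also known as JMJ30, encodes a Jumonji histone demethylase linked to the circadian clock. Its mean reactivity was 0.342 and 0.253 in control and salt-treated shoots, and 0.218 and 0.271 in control and salt-treated roots. The ratios were -0.44 and 0.32, and the order of the tissues was reversed, with shoots above roots without salt and roots above shoots with salt.

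LTP2 encodes a small secreted protein that binds lipids and is known from the epidermis and cuticle. It stood at 0.226 and 0.167 in shoots and at 0.169 and 0.204 in roots, without and with salt, giving ratios of -0.44 and 0.27. Like JMJD5, LTP2 was the more reactive in shoots without salt and in roots with it. GPAT4, an acyltransferase of cutin synthesis, had the highest root ratio of the group, 0.43, from 0.195 and 0.263. Its shoot values of 0.276 and 0.240 gave a ratio of -0.20, the one nearest to the limit.

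NRPB12 encodes a small subunit shared by nuclear RNA polymerases. Mean reactivity was 0.287 and 0.237 in shoots and 0.123 and 0.166 in roots, with ratios of -0.28 and 0.43. In roots it ranked at percentile 1.85 of the loci considered without salt and at 12.6 with salt.

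EXL4 belongs to the EXORDIUM-like genes, whose founding member promotes cell expansion. Values of 0.250 and 0.205 in shoots and 0.130 and 0.168 in roots gave ratios of -0.28 and 0.38. AT5G21020, represented by its isoform 2, was similar, with 0.240 and 0.196 in shoots, 0.129 and 0.172 in roots and ratios of -0.29 and 0.41. The ratios of AT2G35736 were -0.43 and 0.27 and those of AT1G29160 were -0.40 and 0.30. The long non-coding RNA AT4G37432, at -0.39 and 0.28, and AT4G27840, at -0.35 and 0.29, complete the 10 members with the largest tissue difference. AT5G04080 had the fifth-lowest shoot ratio, -0.41, with 0.22 in root.

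**Figure D2:**
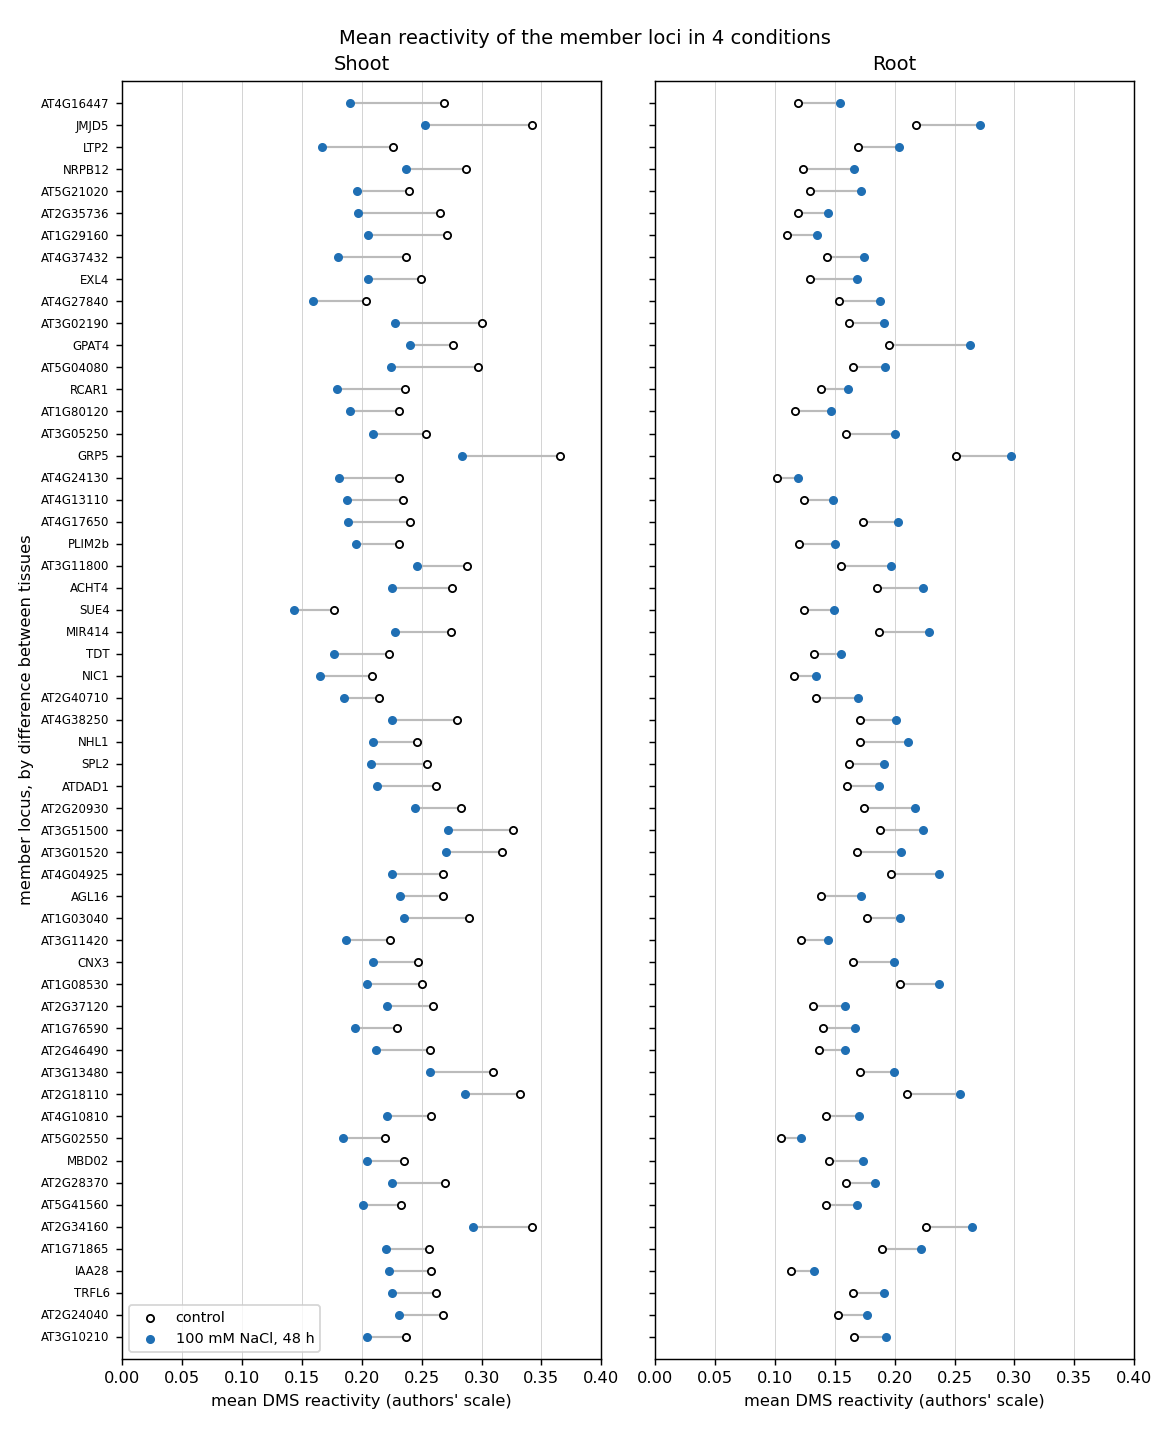
Mean DMS reactivity (x axis, authors' scale) of the 57 members in control (open) and salt-treated (blue) shoots and roots, 1 value per condition, ordered by the difference between tissues with AT4G16447 at the top. The grey lines run leftwards with salt in shoot and rightwards in root, and all members, such as NRPB12 with 0.287 in control shoots and 0.123 in control roots, start at the higher level in shoot.

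The members with a symbol included a pair of hormone signalling genes, RCAR1 and IAA28. RCAR1, also known as PYL9, is a receptor that binds abscisic acid, the hormone of drought and salt responses, and then inhibits protein phosphatases. It stood at 0.236 and 0.180 in shoots and at 0.138 and 0.161 in roots, for ratios of -0.39 and 0.22. IAA28 is an Aux/IAA repressor of auxin responses known for restraining lateral roots. Its values were 0.258 and 0.223 in shoots and 0.114 and 0.132 in roots, for ratios of -0.21 and 0.22, close to both limits.

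Among regulators of transcription and chromatin, AGL16, a MADS-box factor, stood at 0.268 and 0.232 in shoots and at 0.139 and 0.171 in roots (ratios -0.21 and 0.30). MBD02, a methyl-CpG-binding domain protein, stood at 0.235 and 0.204 in shoots and at 0.145 and 0.174 in roots (-0.20 and 0.26). TRFL6, named for its likeness to telomere-repeat-binding proteins, stood at 0.262 and 0.225 in shoots and at 0.165 and 0.191 in roots (-0.22 and 0.21). In these 3 genes, as in IAA28, both shoot values lay above both root values, and the shoot ratio was near the limit.

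In metabolism and transport, TDT, the malate carrier of the vacuolar membrane, had 0.223 and 0.177 in shoots and 0.133 and 0.155 in roots (-0.33 and 0.23). NIC1, a nicotinamidase of NAD salvage, had 0.208 and 0.165 in shoots and 0.116 and 0.135 in roots (-0.34 and 0.21). CNX3, which acts early in molybdenum cofactor synthesis, had 0.247 and 0.209 in shoots and 0.165 and 0.200 in roots (-0.24 and 0.27). TDT and NIC1 were among the least reactive transcripts of salt-treated shoots, at percentiles 1.48 and 0.827. They already ranked low in control shoots, at 6.98 and 2.80. ACHT4, a chloroplast thioredoxin, had 0.275 and 0.225 in shoots and 0.185 and 0.224 in roots (-0.29 and 0.28), so that with salt the tissues were nearly level.

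Of the members with structural or other roles, GRP5, a glycine-rich protein, was the most reactive in 3 of the 4 conditions, with 0.366 and 0.284 in shoots and 0.251 and 0.297 in roots (-0.37 and 0.24). PLIM2b, an actin-binding LIM protein, had 0.232 and 0.195 in shoots and 0.120 and 0.15 in roots (-0.25 and 0.32). ATDAD1, a subunit of the enzyme that attaches glycans to proteins, had 0.262 and 0.213 in shoots and 0.160 and 0.187 in roots (-0.30 and 0.23). PLIM2b and ATDAD1 kept the shoot above the root with salt, and GRP5 did not.

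SPL2, at locus AT1G54150 and related to the chloroplast ubiquitin ligase SP1, had 0.254 and 0.208 in shoots and 0.162 and 0.191 in roots (-0.29 and 0.24). NHL1, of the NDR1/HIN1-like family, had 0.246 and 0.210 in shoots and 0.171 and 0.211 in roots (-0.23 and 0.30). SUE4 was the least reactive member in shoots, with 0.177 and 0.144, and had 0.124 and 0.149 in roots (-0.30 and 0.26). MIR414, annotated as a microRNA gene, had 0.274 and 0.228 in shoots and 0.187 and 0.228 in roots (-0.27 and 0.29), and these are values of the transcript of the locus, not of a mature microRNA. In NHL1 and MIR414 the salt values of the tissues were nearly equal.

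All 57 loci were found in the reference table, where 55 are protein-coding, 1 is a microRNA gene and 1 a long non-coding RNA. A symbol other than the locus code was given for 21, all described above. The other 36 had shoot ratios of -0.50 to -0.21 and root ratios of 0.20 to 0.41, with medians of -0.27 and 0.25. AT4G24130 had the lowest value of any member in salt-treated roots, 0.119, after 0.102 in control roots. AT2G34160 had the highest in salt-treated shoots, 0.293, after 0.342 without salt.

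The loci nearest to the limits show how narrow the boundary is. Just inside, after GPAT4, were AT2G28370 with a root ratio of 0.2005 and MBD02 with a shoot ratio of -0.203. Just outside were AT5G48655 with a root ratio of 0.199, TOM1 with a shoot ratio of -0.199 and AT5G35320 with a root ratio of 0.199.

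In control plants all 57 members were less reactive in root than in shoot, as were 92.6% of the 8830 loci. Their median log2 ratio of root over shoot was -0.73, against -0.45 over all loci, and 52 of the 57 lay below that overall median. The control means are also the denominators of the ratios that chose the members. The wide gap without salt is thus fixed in part by the rule and is a description. With salt 45 members were still less reactive in root and 12 were more so, while 91.0% of the 8830 loci were less reactive in root. Compared by rank within each condition instead, 12 members stood lower in root than in shoot with salt. The members' median log2 ratio of root over shoot with salt was -0.22, against -0.32 over all loci, and 18 members lay below the overall median. A narrowing of at least 0.4 on the log2 scale follows from the rule, so the narrower gap is a description. The 12 that crossed were JMJD5, LTP2, AT4G27840, GPAT4, GRP5, AT4G17650, SUE4, MIR414, NHL1, AT4G04925, AT1G08530 and AT1G71865, with ratios under salt of 0.01 to 0.29, the highest in LTP2. IAA28 kept the widest gap under salt, at -0.75, after -1.18 without it.

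Percentile ranks within a condition were taken from the same means that chose the members, so a lower rank in salt-treated shoots and a higher one in salt-treated roots follow from the rule and are given as a description. The median member stood at percentile 34.2 of the 8830 loci in control shoots and at 8.65 in salt-treated shoots. In roots it stood at 11.3 without salt and 28.3 with salt. The number of members among the lowest 25% of loci went from 22 to 46 in shoots and from 44 to 28 in roots. GRP5 ranked at 96.0 and 61.9 in shoots and at 82.4 and 89.0 in roots, without and with salt, whereas SUE4 ranked at 0.374 and 0.260 in shoots and at 1.98 and 5.38 in roots.

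**Figure D3:**
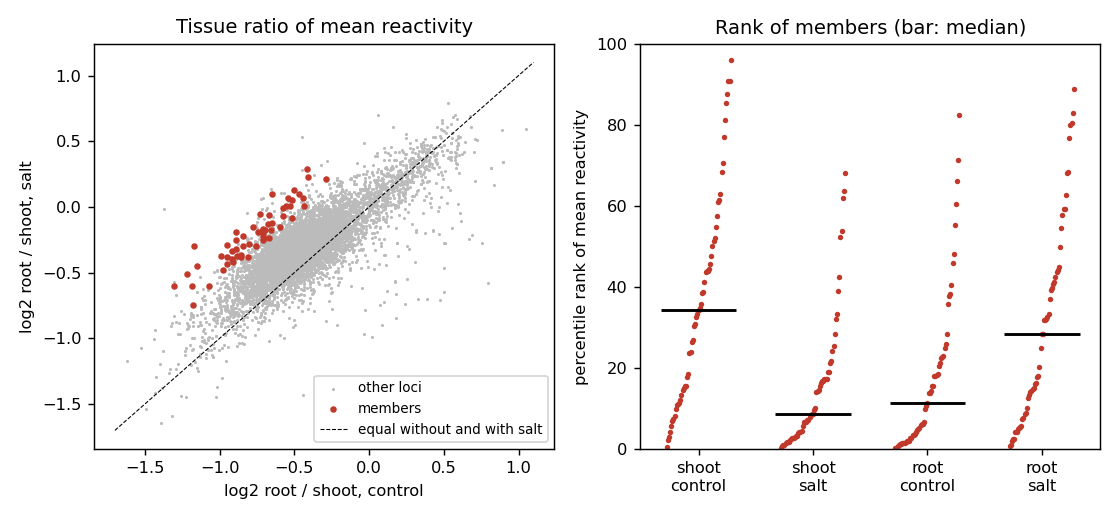
Left, log2 ratio of root over shoot mean reactivity without salt (x axis) and with salt (y axis) for the 57 members (red) and the other loci (grey), with a dashed line of equal ratios. Right, percentile rank of each member's mean reactivity among 8830 loci in the 4 conditions, with medians as bars at 34.2, 8.65, 11.3 and 28.3.

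The spread of reactivity between the bases of a transcript moved with the mean. The standard deviation was lower in salt-treated shoots in all 57 members and higher in salt-treated roots in all 57, where 47.6% and 83.2% of the 8830 loci had these directions. Its median log2 ratio was -0.24 in shoot and 0.28 in root, close to the ratios of the mean. The standard deviation divided by the mean therefore had median log2 ratios of only 0.03 and 0.01. These measures come from the same libraries as the rule and give no independent support.

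The Gini index had no common direction. It was higher with salt in 35 members and lower in 22 in shoots, while 73.8% of all loci were higher. In roots it was lower in 26 members and higher in 31, and 33.9% of all loci were lower. Only 16 members had a higher index in shoot together with a lower one in root. Median Gini indices were 0.704 and 0.714 in shoots and 0.691 and 0.701 in roots, without and with salt.

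AT4G16447 and LTP2 had similar shoot ratios of the mean but opposite moves of the index. In AT4G16447 the Gini index in shoots was 0.697 without and 0.791 with salt. In LTP2 it was 0.751 and 0.641, and the highest reactivity of a base was 1.73 without and 0.875 with salt. The terms closing and opening thus describe the mean of a transcript here and not where along it the reactive bases lie, which was not analysed here. The most reactive base was lower in salt-treated shoots in 48 members and higher in salt-treated roots in 47, against 47.0% and 70.6% of all loci. That base is part of the mean used by the rule, so these counts give no independent support. TDT had the largest value of a base in control shoots, 3.02, and 1.34 with salt.

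The scale of reactivity differed between conditions across all loci. In control shoots the standard deviation of the middle 50% of loci lay between 0.363 and 0.375, with a median of 0.369, and in salt-treated shoots between 0.348 and 0.398, with a median of 0.371. In control roots the middle 50% lay between 0.234 and 0.304, and in salt-treated roots between 0.255 and 0.331. Spearman's rho of mean reactivity with the Gini index, across 8830 loci that share these libraries, was -0.993 and -0.784 in control and salt-treated shoots and -0.226 and -0.284 in control and salt-treated roots. In median standard deviation and in rho the shoot conditions were thus nearer to each other than to the roots. In the width of the middle 50% control shoots stood apart, with a far narrower range than salt-treated shoots or either root condition. The shoot ratios therefore compare conditions of unlike spread. The part of these differences in the members' ratios was not tested.

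**Figure D4:**
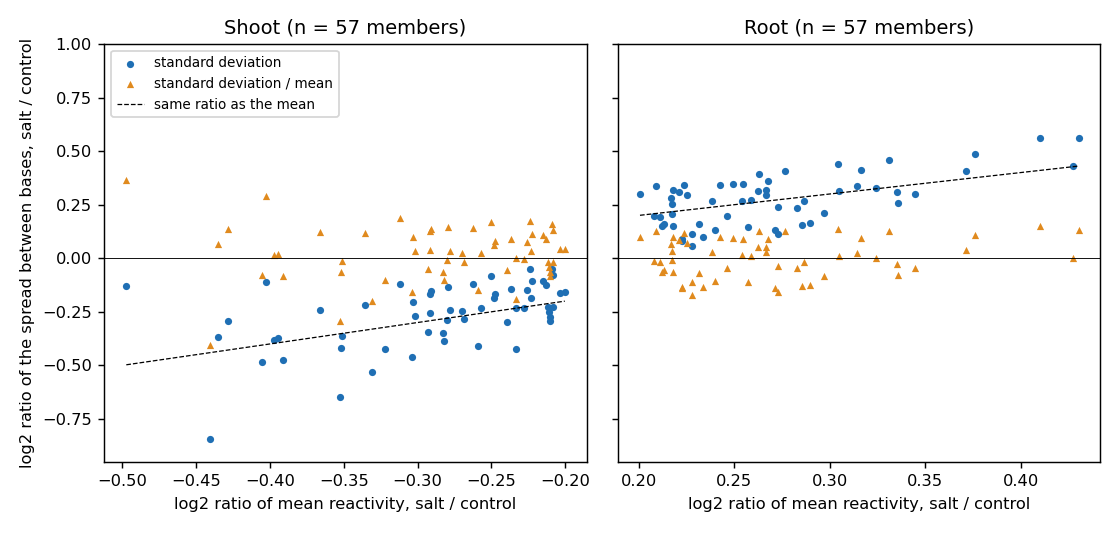
For the 57 members, log2 ratio, salt over control, of the standard deviation between bases (blue) and of that standard deviation divided by the mean (orange) against the log2 ratio of mean reactivity (x axis), in shoot and root, with a dashed line where the standard deviation has the same ratio as the mean. The blue points lie below 0 in shoot (median -0.24) and above 0 in root (median 0.28), and the orange points lie on either side of 0.

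Other isoforms were listed for 10 of the 57 member loci (17.5%), whereas 31.9% of all loci had more than 1 isoform. These loci had 14 further isoforms, none with values identical to the member's. All 14 had a ratio below 0 in shoot and above 0 in root, and 6 of them, from ACHT4, JMJD5 and SUE4, met the rule. Isoforms of a locus can share bases and reads, so they are not counted as repeats of the measurement. How much they share was not measured.

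The 3 further isoforms of ACHT4 had shoot ratios of -0.34 to -0.28 and root ratios of 0.27 to 0.30. JMJD5 isoforms 2 and 3 stood at -0.42 and -0.41 in shoot and at 0.28 and 0.30 in root. AGL16 isoform 2, at -0.197 in shoot, and CNX3 isoform 2, at -0.198, fell just short of the limit. In NIC1 and TRFL6 isoform 2 had root ratios of 0.18 and 0.19, in AT1G03040 it had 0.17, and in AT5G04080 isoforms 2 and 3 had 0.17 and 0.13. The largest difference from the member was that of AT2G35736, where isoform 2 stood at -0.15 and 0.09 against -0.43 and 0.27 for isoform 1.

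Genes related by name to the members were set beside them in 15 groups, formed after the members were known, each with 1 member. That each group holds 1 gene past both limits was thus fixed in advance. Of 17 RNA polymerase subunit genes considered, NRPB12 was the only one at -0.2 or lower in shoot, where 7.6% of all loci lay. It also had the highest root ratio, ahead of NRPB4 at 0.24 (shoot 0.07) and NRPB6A at 0.21 (shoot -0.10). NRPB3, at -0.17 and 0.18, and NRPB6B, at -0.18 and 0.14, came nearest to it in pattern.

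Of 5 abscisic acid receptor genes RCAR1 alone was below -0.2 in shoot, where 7.6% of all loci were at -0.2 or lower. PYL4 was higher with salt in both tissues, at 0.26 and 0.48, as was PYR1, at 0.16 and 0.32. PYL1 stood at -0.05 and 0.004, and RCAR3 at 0.10 and 0.14. The shoot ratios of the receptors thus lay on either side of 0. All 5 root ratios were above 0, as were those of 80.2% of all loci.

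Among 15 Aux/IAA genes the median ratio was 0.06 in shoot and 0.14 in root. Apart from IAA28, 4 of them reached 0.2 in root, led by IAA13 at 0.33, but none reached -0.2 in shoot. Of all loci, 14.4% reached the root limit and 7.6% the shoot limit. Of the relatives of EXL4, EXL2 had the same signs, at -0.06 in shoot and 0.15 in root. EXO, at 0.23 and 0.19, EXL5, at 0.19 and 0.02, and EXL3, at 0.37 and 0.09, were above 0 in both tissues. The lipid transfer protein gene LP1, the neighbour of LTP2 by locus code, was at -0.15 in shoot but at -0.61 in root.

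Of 5 molybdenum cofactor genes, CNX2, which acts in the same step as CNX3, was the nearest at -0.18 and 0.18, while CNX7 stood at 0.23 and 0.30. MBD11 was lower than MBD02 in shoot, at -0.29, and stood at 0.14 in root. The histone demethylase genes other than JMJD5 had shoot ratios of -0.11 to 0.07 and root ratios of 0.03 to 0.16. Of 9 thioredoxin genes, 3 were past the shoot limit and 3 past the root limit, with ACHT4 counted in both. Of all loci, 7.6% and 14.4% were past these limits. Besides ACHT4, TRX5 (-0.25 in shoot, 0.09 in root) and ATTRX4 (-0.24 and 0.12) were past the shoot limit. Of the relatives of GPAT4, GPAT9 stood at -0.09 and 0.22, past the root limit, and GPAT6 at 0.24 and -0.02.

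**Figure D5:**
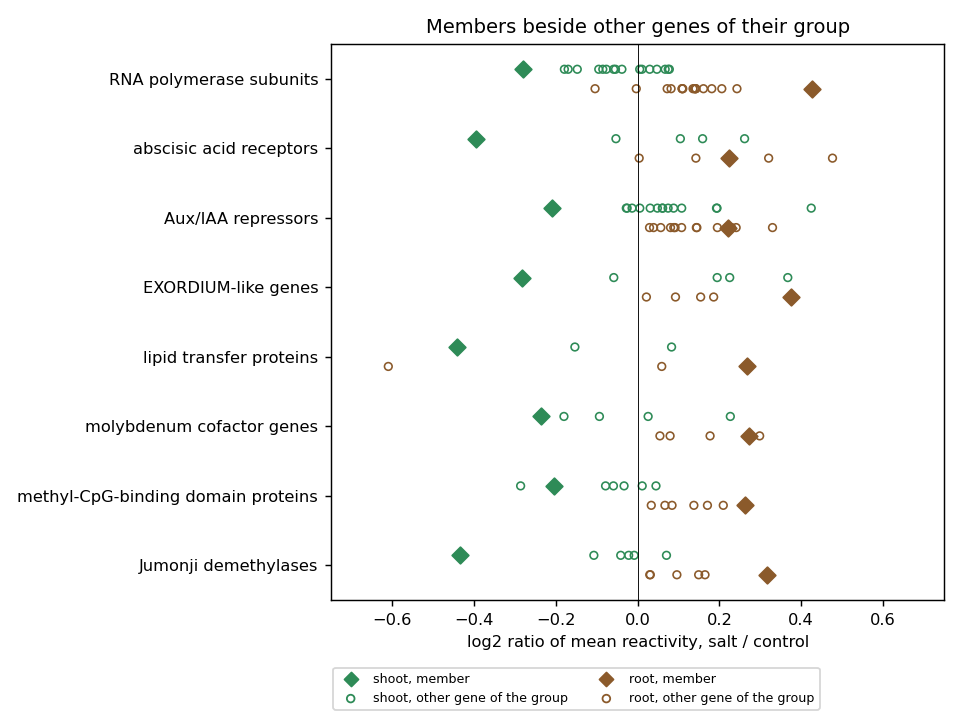
Log2 ratio of mean reactivity, salt over control, in shoot (green) and root (brown) for 8 groups of genes related by name, with the member of each group as a diamond and the other genes as open circles, 1 value per condition. The members lie at the left in shoot in every group but 1, with MBD11 at -0.29 in shoot and PYL4 at 0.48 in root as examples of other genes beyond the member.

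Gene lists formed from symbols and names in the reference are read against all 8830 loci, of which 7.6% were at -0.2 or lower in shoot, 14.4% at 0.2 or higher in root and 0.646% members. The list of salt, dehydration and abscisic acid genes had 82 loci considered, of which 26 (31.7%) were at -0.2 or lower in shoot and 15 (18.3%) at 0.2 or higher in root. RCAR1 was the 1 member among them (1.22%). The medians of that list were -0.03 and 0.08, against -0.03 and 0.09 over all loci.

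Lipid transfer and metabolism had 122 loci, 12 (9.84%) past the shoot limit and 21 (17.2%) past the root limit, and held GPAT4 and LTP2 (1.64%). Hormone synthesis and signalling had 138 loci, 8 (5.80%) past the shoot limit and 29 (21.0%) past the root limit, and held RCAR1 and IAA28 (1.45%).

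Peroxidases and redox (65 loci) held ACHT4, transcription factors (222 loci) held IAA28 and RNA-binding proteins (83 loci) held GRP5. The pattern of glycine-rich symbols placed GRP5 on that last list, although it is not known as an RNA-binding protein. No member came from 14 of the 20 lists. Those with the most loci considered were cell wall and ubiquitin ligases (124 loci each), protein kinases (115), ion and nutrient transport (74), ribosomal proteins and calcium signalling (69 each) and phosphatases (67). The others, with 15 to 56 loci, were defence, sugar transport and metabolism, heat shock, photosynthesis, cytochrome P450, aquaporins and glutathione transferases. The lists match symbols and synonyms and are incomplete. AGL16, TDT and SPL2, described above as a MADS-box factor, a malate carrier and a relative of a ubiquitin ligase, were on none of them. Members were 0.646% of all loci, so a list of this size without a member is not a result about its function.

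The members lay on all 5 nuclear chromosomes, 15 on chromosome 1, 11 on chromosome 2, 13 on chromosome 3 and 9 each on chromosomes 4 and 5. These are 26.3%, 19.3%, 22.8%, 15.8% and 15.8% of the members, against 25.6%, 14.8%, 20.5%, 15.3% and 23.7% of all loci. None was encoded in an organelle, where only 14 chloroplast and 6 mitochondrial loci were considered. No member was next to another in the reference order. Among the 35 adjacent or overlapping genes that were considered, 16 (45.7%) had a shoot ratio below 0 and a root ratio above 0, near the 48.5% of all loci. In the reference, 21 members overlap another gene, so reads may belong to either where strand was not kept, and 36 members do not. The share of all loci that overlap another gene was not counted. AT5G35320, just outside the limits at -0.25 and 0.199, overlaps MBD02. ATDAD1, PLIM2b, NRPB12, SUE4 and SPL2 are also among the 21.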

How the data were processed

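Structure-seq2 libraries were made from poly(A)-selected RNA with random hexamers, per the labels' protocols. The deposited table gives the highest reactivity, the mean and the standard deviation between bases as scores on the authors' scale, per the file headers. The Gini index is a fraction, deposited by the authors per the file headers. The way replicates were combined, the aligner, build, strand, coverage filter and normalization were not given in the sources used here.

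Log2 ratios were taken without pseudocount, with pandas 2.3.3 and numpy 2.4.6 in Python 3.11.15. With 1 value per condition, differences are described by size and count. The members and lists were chosen with earlier results of these data known. Genes named are the 10 largest tissue differences, the 5 lowest shoot and 5 highest root ratios, 3 loci on each side of the limits, up to 3 members per gene list and members with other isoforms. Other members with symbols, and related genes, were named after their values were seen. Lists match symbols and synonyms in the TAIR10.1 table, which held 8768 of 8830 loci. Only the ratios and the rule were tested on simulated data, with planted changes beyond the limits, which the rule finds by construction. Genes related by protein match were planned, but groups by symbol were used in their place, because sequences were not used here.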

Additional observations from a re-analysis of the deposited data

Results flagged for a closer look

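The 57 loci had a lower mean reactivity in salt-treated shoots and a higher one in salt-treated roots. They stand out only by passing both limits on the log2 ratio, -0.2 in shoot and 0.2 in root. Opposite signs alone are common, because 48.5% of all loci considered had a shoot ratio below 0 and a root ratio above 0. The rule that chose the 57 requires both limits, and the difference between the tissues was not tested.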

How the results depend on the processing

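The number of members depended on the limits. It was 222 with a limit of 0.15 on each log2 ratio, 17 with 0.25 and 2, AT4G16447 and JMJD5, with 0.3. Only 5 loci (JMJD5, GRP5, AT1G08530, AT2G18110 and AT2G34160) met a minimum mean reactivity of 0.2, for which 4171 loci were considered. With a pseudocount of 0.1, which shrinks ratios by construction, there were 3 (AT4G16447, JMJD5 and NRPB12). Centring each tissue on its median left 10 (AT4G16447, JMJD5, NRPB12, AT5G21020, AT1G29160, EXL4, AT1G80120, AT3G05250, PLIM2b and MIR414), although the centred ratios of all 57 members stayed below 0 in shoot and above 0 in root. The standard deviation in place of the mean gave 88 loci, 25 of them members, and the highest reactivity 420, 17 of them members. Leaving out members that overlap another gene, chosen after seeing the data, left 36. No minimum mean gave 65, no Gini limit 58, a Gini limit of 0.8 54, the highest-numbered isoform 58 (50 shared), any isoform 65 and identical loci counted once 57. In place of the 0 members past 1.5-fold in either tissue, 16 were at 0.8 times control or lower in shoot and 10 were at least 25% higher in root. With salt, 18 members were less reactive in root after centring and 12 by rank, against 45 uncentred. Replicate variation and depth could not be examined. No paired analysis was possible because each condition has 1 combined value.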
